A study of Mus musculus with 12 samples.

Results

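Expression of 10 genes of white and brown fat cells was examined in dystrophic mouse muscle: Adipoq, Lep, Plin1, Cidec, Cidea, Ucp1, Scd1, Fabp4, Cfd and Pck1. Each gene was represented by the array's transcript cluster, a probe group that reports a single transcript locus, that the platform annotation pairs with its symbol and no other. Of several such clusters for a gene, the cluster with the highest mean over the 12 arrays was taken. By this rule 9 of the 10 genes were measured, out of 30412 clusters with a single symbol, and Cfd is named only. The genes are named for their known function in adipocytes, and the rule uses no difference between groups.

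The samples were quadriceps muscles of 6-week-old male utrn+/-;mdx mice on the C57BL/10 background, which lack dystrophin and are heterozygous for utrophin, and all 4 groups carried both mutations. The first group received prednisolone, a glucocorticoid, at 1.5 mg/kg/day in the drinking water. The other treated groups received medicated pellets with lisinopril, an inhibitor of angiotensin-converting enzyme, at 20 mg/kg/day, combined with a mineralocorticoid receptor antagonist. That antagonist was spironolactone at 100 mg/kg/day or eplerenone at 200 mg/kg/day. All treatments ran between 4 and 6 weeks of age, and the untreated mice ate normal chow, so that drug and vehicle cannot be told apart. Each group held 3 arrays that the labels give as biological replicates, and no healthy or pellet-only mice were analysed here. The values were log2 signals after robust multi-array averaging, with no detection call, so a signal was not set against a background level. Muscle fibre transcripts were near the top of the scale on every array, with Acta1 (skeletal actin) at 19.91 to 19.93 and Ckm (muscle creatine kinase) at 18.44 to 18.96.

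White adipocytes store triglyceride in a single large droplet coated by perilipin and Cide proteins, and they secrete hormones such as adiponectin and leptin. Brown and beige adipocytes hold many small droplets and burn fatty acids for heat through uncoupling protein 1 in their mitochondria. Between the fibres of skeletal muscle, adipocytes arise from fibro-adipogenic progenitors, and fat around and within a dissected muscle contributes RNA to the whole-tissue extract. In such bulk RNA, fewer adipocytes and less of a transcript per adipocyte cannot be told apart.

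The promoters of 4 of the genes are shown because their levels followed different patterns across the arrays: Adipoq and Plin1 varied together, Lep was higher in value on every treated array than on every untreated one, and Ucp1 was highest on the spironolactone plus lisinopril arrays. Each covers 250 bases before to 50 bases after the start site on the gene's own strand (RefSeq, GRCm38.p6). Adipoq lies at chr16:23146286-23146585 on the plus strand, and capitals mark CCAAT boxes (CCAAT on either strand). Lep lies at chr6:29059971-29060270 on the plus strand, and capitals mark a C/EBP element (TTGCNNAA, which is its own reverse complement there) and a GC box (GGGCGG). Plin1 lies at chr7:79732727-79733026 on the minus strand, and capitals mark C/EBP elements. Ucp1 lies at chr8:83290098-83290397 on the plus strand, and capitals mark a short cyclic AMP response element (TGACG) and a single nuclear receptor repeat (AGGTCA).
Adipoq: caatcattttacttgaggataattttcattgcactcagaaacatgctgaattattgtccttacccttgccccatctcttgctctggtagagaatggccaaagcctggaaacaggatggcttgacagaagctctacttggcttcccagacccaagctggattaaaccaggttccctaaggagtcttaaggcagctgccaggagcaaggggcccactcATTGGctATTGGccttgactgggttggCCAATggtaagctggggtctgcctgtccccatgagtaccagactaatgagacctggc
Lep: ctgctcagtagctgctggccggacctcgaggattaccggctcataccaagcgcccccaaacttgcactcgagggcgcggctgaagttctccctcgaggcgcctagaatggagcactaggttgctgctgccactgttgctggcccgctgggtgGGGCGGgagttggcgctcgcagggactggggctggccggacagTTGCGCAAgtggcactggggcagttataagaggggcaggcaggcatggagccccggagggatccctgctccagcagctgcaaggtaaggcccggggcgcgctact
Plin1: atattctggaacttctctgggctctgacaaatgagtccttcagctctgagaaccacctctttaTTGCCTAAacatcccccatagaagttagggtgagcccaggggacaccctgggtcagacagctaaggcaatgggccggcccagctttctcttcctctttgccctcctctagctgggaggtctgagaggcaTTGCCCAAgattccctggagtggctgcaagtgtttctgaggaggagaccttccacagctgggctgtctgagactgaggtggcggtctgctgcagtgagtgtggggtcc
Ucp1: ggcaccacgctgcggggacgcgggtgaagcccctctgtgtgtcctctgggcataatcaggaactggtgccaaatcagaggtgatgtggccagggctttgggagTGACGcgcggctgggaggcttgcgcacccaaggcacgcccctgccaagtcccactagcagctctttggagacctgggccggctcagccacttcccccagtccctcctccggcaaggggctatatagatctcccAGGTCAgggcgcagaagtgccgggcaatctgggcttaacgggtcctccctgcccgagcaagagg
The 3 CCAAT matches of Adipoq began at bases -34, -27 and -7 from the start site. The C/EBP matches began at -187 and -58 in Plin1 and at -55 in Lep, the GC box of Lep at -98, and the Ucp1 matches at -147 and -14. None of the marked matches overlapped another motif. Of 32851 mouse promoters of this length, 37.4% held CCAAT, 10.8% TTGCNNAA, 35.7% GGGCGG, 20.8% TGACG and 16.3% AGGTCA on either strand, so such matches are common. Searches on both strands found no match in the printed windows for a TATA box (TATAAA, held by 13.6% of those promoters), a hormone response repeat (TGTTCT, 19.0%), an E-box (CACGTG, 7.15%), a full cyclic AMP response element (1.79%) and a direct repeat 1 element (0.040%).

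Among the adipokines, Adipoq encodes adiponectin, a hormone made almost exclusively by adipocytes. Adipoq had log2 signals of 10.16, 7.74 and 8.59 in prednisolone muscles, 9.21, 7.95 and 10.89 in spironolactone plus lisinopril muscles and 7.69, 8.12 and 8.92 in eplerenone plus lisinopril muscles, against 8.03, 7.02 and 8.25 in untreated muscles. Each treated group overlapped the untreated one, and the highest value was in array 3 of spironolactone plus lisinopril and the second highest in array 1 of prednisolone. Adipoq averaged 8.83 ± 1.23 in prednisolone, 9.35 ± 1.47 in spironolactone plus lisinopril, 8.24 ± 0.63 in eplerenone plus lisinopril and 7.76 ± 0.66 in untreated muscles (SD, n = 3 each). The limma differences on the log2 scale were 1.07 ± 0.74 (SE) for prednisolone minus untreated (adjusted p = 0.458), 1.59 for spironolactone plus lisinopril (adjusted p = 0.320) and 0.48 for eplerenone plus lisinopril (adjusted p = 0.814).

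Lep encodes leptin, the adipocyte hormone that reports fat stores to the brain. Its log2 signals were 7.22, 5.94 and 6.37 in prednisolone muscles, 6.54, 5.59 and 7.24 in spironolactone plus lisinopril muscles and 5.87, 6.62 and 6.17 in eplerenone plus lisinopril muscles, against 5.25, 5.39 and 5.19 in untreated muscles. All 9 treated muscles lay above all 3 untreated muscles. The untreated values, and that of array 2 of spironolactone plus lisinopril, lay below the arrays' medians over all tested clusters (5.70 to 5.81). With no detection call, the untreated Lep signal could not be told from background. Lep was 1.23 ± 0.40 higher on the log2 scale in prednisolone than in untreated muscles, with a 95% interval of 0.36 to 2.11 (adjusted p = 0.095). The difference was 1.18 for spironolactone plus lisinopril (interval 0.30 to 2.06, adjusted p = 0.215) and 0.94 for eplerenone plus lisinopril (interval 0.07 to 1.82, adjusted p = 0.345). Each interval lay above 0 taken singly, and none of the 3 differences passed the threshold of 0.05 after Benjamini-Hochberg adjustment over all 30412 clusters. The 3 differences share the same untreated arrays and are not independent of each other.

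Of the lipid droplet proteins, Plin1 encodes perilipin 1, which coats the adipocyte droplet and gates lipolysis. Plin1 had log2 signals of 9.11, 7.29 and 7.91 in prednisolone muscles, 8.18, 7.09 and 10.26 in spironolactone plus lisinopril muscles and 7.00, 7.58 and 8.24 in eplerenone plus lisinopril muscles, against 7.27, 6.61 and 6.86 in untreated muscles. Only the prednisolone group was wholly above the untreated one, by a margin of hundredths of a log2 unit, with a difference of 1.19 ± 0.70 (adjusted p = 0.362). The difference was 1.60 for spironolactone plus lisinopril (adjusted p = 0.294) and 0.70 for eplerenone plus lisinopril (adjusted p = 0.690).

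Cidec, which joins droplets into the single large droplet of white adipocytes, had log2 signals of 11.88, 9.05 and 9.72 in prednisolone muscles, 10.35, 9.17 and 12.09 in spironolactone plus lisinopril muscles and 8.69, 9.22 and 9.85 in eplerenone plus lisinopril muscles, against 9.24, 8.29 and 9.37 in untreated muscles. Every treated group overlapped the untreated one, and the order of the arrays within each group was that of Adipoq. The differences from untreated were 1.25, 1.57 and 0.29 for prednisolone, spironolactone plus lisinopril and eplerenone plus lisinopril (adjusted p = 0.401, 0.343 and 0.905). Cidea, the droplet protein of the same family that is abundant in brown and beige fat, had 8.19, 6.53 and 6.21 in prednisolone muscles, 7.72, 6.98 and 10.33 in spironolactone plus lisinopril muscles and 6.79, 6.95 and 6.97 in eplerenone plus lisinopril muscles, against 7.03, 6.50 and 6.67 in untreated muscles. Its eplerenone plus lisinopril values spanned an SD of only 0.10, whereas array 3 of spironolactone plus lisinopril stood far above the rest. Cidea differed by 1.61 between spironolactone plus lisinopril and untreated muscles (adjusted p = 0.306), by 0.24 between prednisolone and untreated muscles (adjusted p = 0.897), and by 0.17 between eplerenone plus lisinopril and untreated muscles (adjusted p = 0.943).

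Ucp1 encodes the uncoupling protein that defines brown and beige adipocytes. Its log2 signals were 4.89, 4.78 and 5.16 in prednisolone muscles, 7.09, 6.74 and 10.67 in spironolactone plus lisinopril muscles and 5.28, 5.73 and 5.22 in eplerenone plus lisinopril muscles, against 4.85, 4.86 and 4.85 in untreated muscles. The 3 spironolactone plus lisinopril arrays were the 3 highest of the 12, with no overlap with any other group, and array 3 stood well above the other two. The untreated and prednisolone values lay below the arrays' medians over all tested clusters, which ran between 5.70 and 5.81. Arrays 1 and 3 of eplerenone plus lisinopril also lay below their medians, and array 2 (5.73) was close to its own (5.71). The eplerenone plus lisinopril arrays were also all above the untreated arrays, by 0.56 on average (adjusted p = 0.786). Spironolactone plus lisinopril minus untreated was 3.31 ± 0.77 on the log2 scale, with a 95% interval of 1.62 to 5.01 (adjusted p = 0.151, limma). No fold is given, because with no detection call the untreated signal could not be told from background. Prednisolone minus untreated was 0.09 ± 0.77 (adjusted p = 0.967).

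The call for Ucp1 depended on the most extreme array. Without array 3 of spironolactone plus lisinopril, which leaves arrays 1 and 2, the difference from untreated was 2.06 ± 0.17 (limma, adjusted p = 0.00818). Without array 3 the limma F-test for any difference among the 4 groups gave an adjusted p of 0.00333, against 0.0856 with all arrays. Both tests pool the spread of all groups, and the untreated and prednisolone values had SDs of only 0.004 and 0.19. The full spironolactone plus lisinopril group had an SD of 2.17, a spread that these small p-values do not measure. Among the 9 genes the next F-test values were 0.222 for Lep and 0.223 for Scd1, and 1.93% of all tested clusters passed that test.

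**Figure D1:**
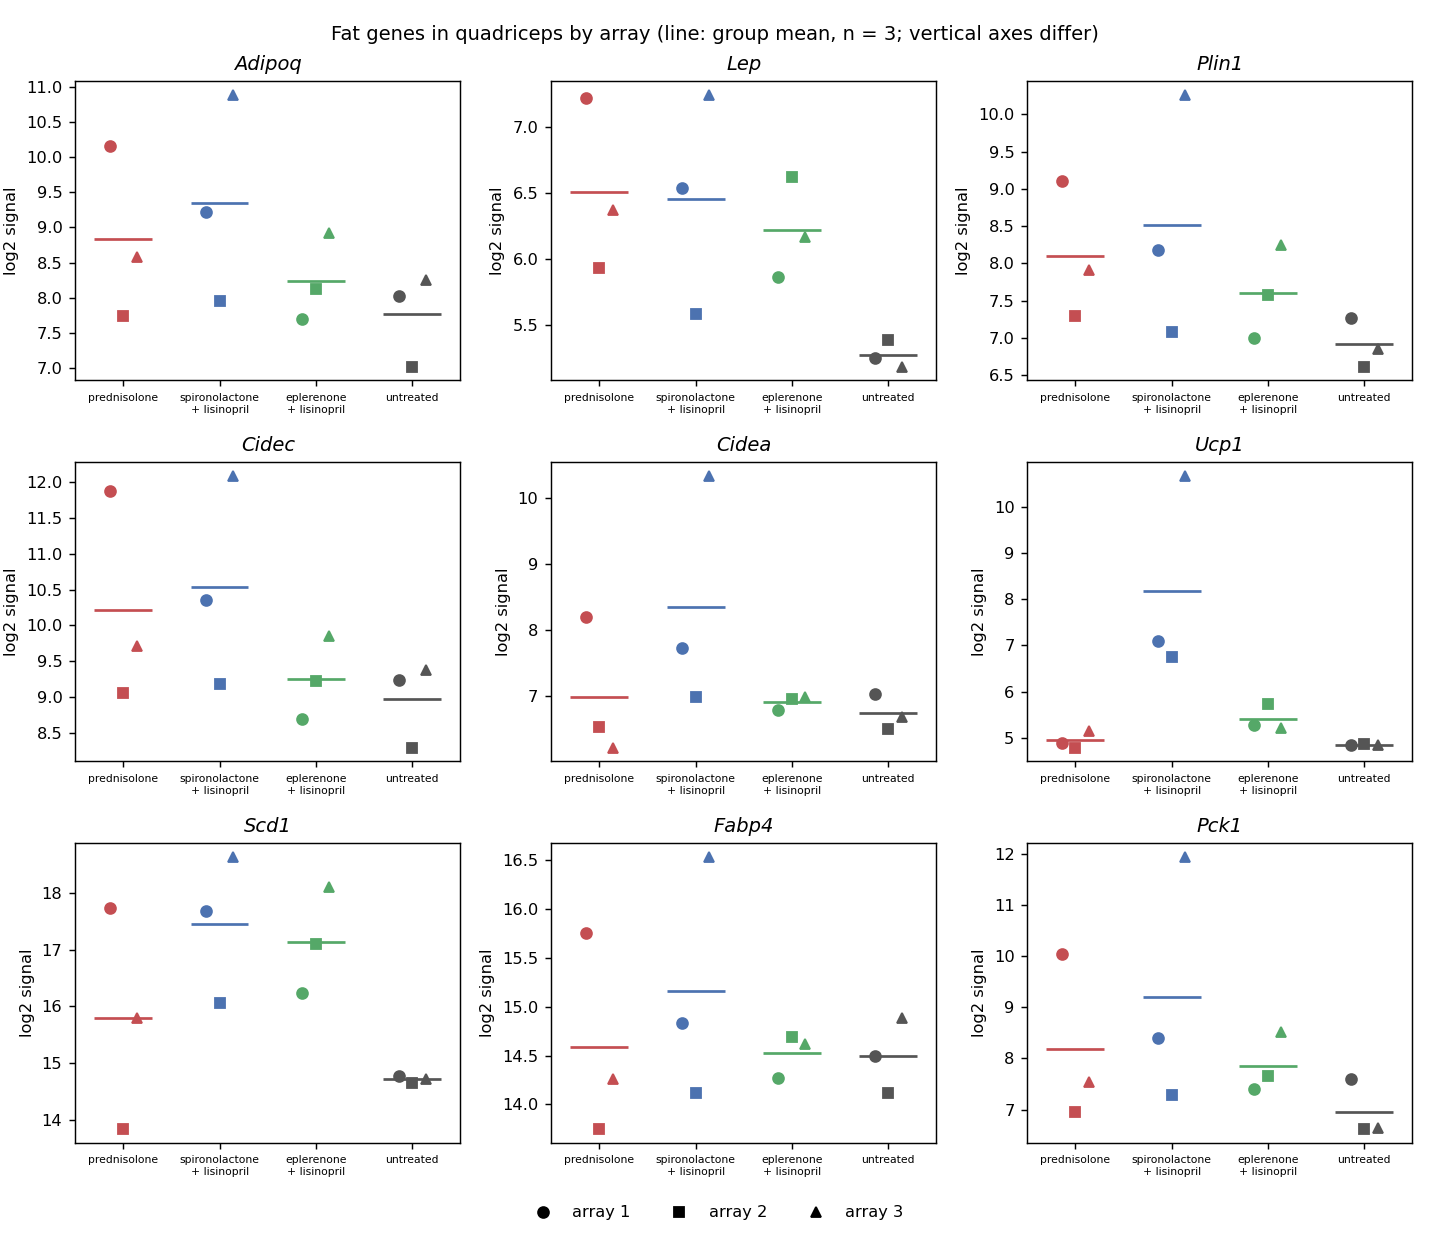
Log2 signal of the 9 measured genes (vertical axis, a separate range for each panel) in the prednisolone, spironolactone plus lisinopril, eplerenone plus lisinopril and untreated groups (horizontal axis). Points are single arrays, their shapes give array numbers 1 to 3, and horizontal lines are means of 3 arrays. Array 3 of spironolactone plus lisinopril was the highest of the 12 for 9 of 9 genes, and all Ucp1 values of that group lay above every other group.

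Among the genes of lipid synthesis and transport, Scd1 encodes stearoyl-CoA desaturase 1, which makes monounsaturated fatty acids and is abundant in fat and inducible in muscle and liver. Scd1 had log2 signals of 17.74, 13.84 and 15.79 in prednisolone muscles, 17.68, 16.06 and 18.64 in spironolactone plus lisinopril muscles and 16.23, 17.10 and 18.10 in eplerenone plus lisinopril muscles, against 14.78, 14.65 and 14.72 in untreated muscles. All 6 muscles given a receptor antagonist plus lisinopril lay above all untreated muscles, while prednisolone arrays lay on both sides of them. The untreated arrays spanned an SD of only 0.07, against SDs of 1.95, 1.31 and 0.93 in the prednisolone, spironolactone plus lisinopril and eplerenone plus lisinopril arrays. Spironolactone plus lisinopril minus untreated was 2.74 ± 0.88 on the log2 scale, with a 95% interval of 0.80 to 4.69 (adjusted p = 0.201, limma). As a fold this was 6.70, with an interval of 1.74 to 25.8. Eplerenone plus lisinopril minus untreated was 2.43 ± 0.88 on the log2 scale, with a 95% interval of 0.48 to 4.38 (adjusted p = 0.288, limma). As a fold this was 5.38, with an interval of 1.40 to 20.8. Prednisolone minus untreated was 1.07 ± 0.88 (adjusted p = 0.543).

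A second Scd1 cluster of lower signal differed from untreated in the same direction in each treatment, by larger amounts. Its log2 signals were 13.75, 8.08 and 10.75 in prednisolone muscles, 13.25, 11.17 and 15.51 in spironolactone plus lisinopril muscles and 11.21, 12.57 and 14.01 in eplerenone plus lisinopril muscles, against 9.48, 9.28 and 9.26 in untreated muscles. The order of the 3 arrays within each treated group matched that of the first cluster. The log2 differences from untreated were 1.52 for prednisolone (limma, adjusted p = 0.575), 3.97 for spironolactone plus lisinopril (adjusted p = 0.216) and 3.26 for eplerenone plus lisinopril (adjusted p = 0.334). The size of the Scd1 difference thus depended on the cluster, and the folds given are those of the first cluster.

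Fabp4 encodes the adipocyte fatty acid-binding protein, which endothelial cells and some macrophages also express. It had log2 signals of 15.75, 13.75 and 14.26 in prednisolone muscles, 14.84, 14.12 and 16.53 in spironolactone plus lisinopril muscles and 14.27, 14.69 and 14.62 in eplerenone plus lisinopril muscles, against 14.50, 14.12 and 14.88 in untreated muscles. Its differences from untreated were the smallest of the 9 genes in each treatment, at 0.08, 0.66 and 0.03 for prednisolone, spironolactone plus lisinopril and eplerenone plus lisinopril (adjusted p = 0.960, 0.584 and 0.989). Pck1, the cytosolic enzyme that supplies glycerol-3-phosphate for triglyceride in fat and glucose precursors in liver, had 10.04, 6.95 and 7.55 in prednisolone muscles, 8.40, 7.28 and 11.94 in spironolactone plus lisinopril muscles and 7.39, 7.65 and 8.52 in eplerenone plus lisinopril muscles, against 7.59, 6.62 and 6.64 in untreated muscles. Pck1 had the widest residual spread of the 9 genes and overlapped the untreated group in every treatment. Its differences from untreated were 1.23 for prednisolone (adjusted p = 0.568), 2.25 for spironolactone plus lisinopril (adjusted p = 0.323) and 0.90 for eplerenone plus lisinopril (adjusted p = 0.744).

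No member passed limma's adjusted threshold in any comparison with untreated muscles, where 6.39% of all tested clusters passed for prednisolone, 0.0822% for spironolactone plus lisinopril and 0.0296% for eplerenone plus lisinopril. At an unadjusted p under 0.05, 1 of the 9 genes was higher under prednisolone (10.9% of all clusters were), 5 under spironolactone plus lisinopril (6.37%) and 2 under eplerenone plus lisinopril (6.11%). The count of 5 was 2 (Ucp1 and Scd1) without array 3 of spironolactone plus lisinopril, and 8 without array 1 of prednisolone, which enters only the shared spread. All 9 genes were higher in value than untreated in each of the 3 comparisons, which share the untreated arrays, with median differences of 1.07 for prednisolone, 1.60 for spironolactone plus lisinopril and 0.56 for eplerenone plus lisinopril. Over all clusters these medians were -0.01, -0.04 and -0.03. The 9 genes varied together over the arrays, so a count of them is not a count of independent observations. Groups without overlap, higher in the treated group, were found for 2 of 9 genes under prednisolone (Lep and Plin1), where 13.4% of all clusters did so. The count was 3 of 9 under spironolactone plus lisinopril (Lep, Ucp1 and Scd1, against 7.35% of all clusters) and 3 of 9 under eplerenone plus lisinopril (the same genes, against 7.7%). Ucp1 in eplerenone plus lisinopril and untreated muscles lay near or below the arrays' medians, so its separation there was at low signal. A log2 difference of at least 1, the fold on which the submitters selected genes, was reached by 6, 8 and 1 of the 9 genes for prednisolone, spironolactone plus lisinopril and eplerenone plus lisinopril, against 0.523%, 0.22% and 0.171% of all clusters. Single arrays carried most of these counts: without array 1 of prednisolone 0 of 9 genes reached that difference under prednisolone, and without array 3 of spironolactone plus lisinopril 2 of 9 (Ucp1 and Scd1) reached it under spironolactone plus lisinopril.

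**Figure D2:**
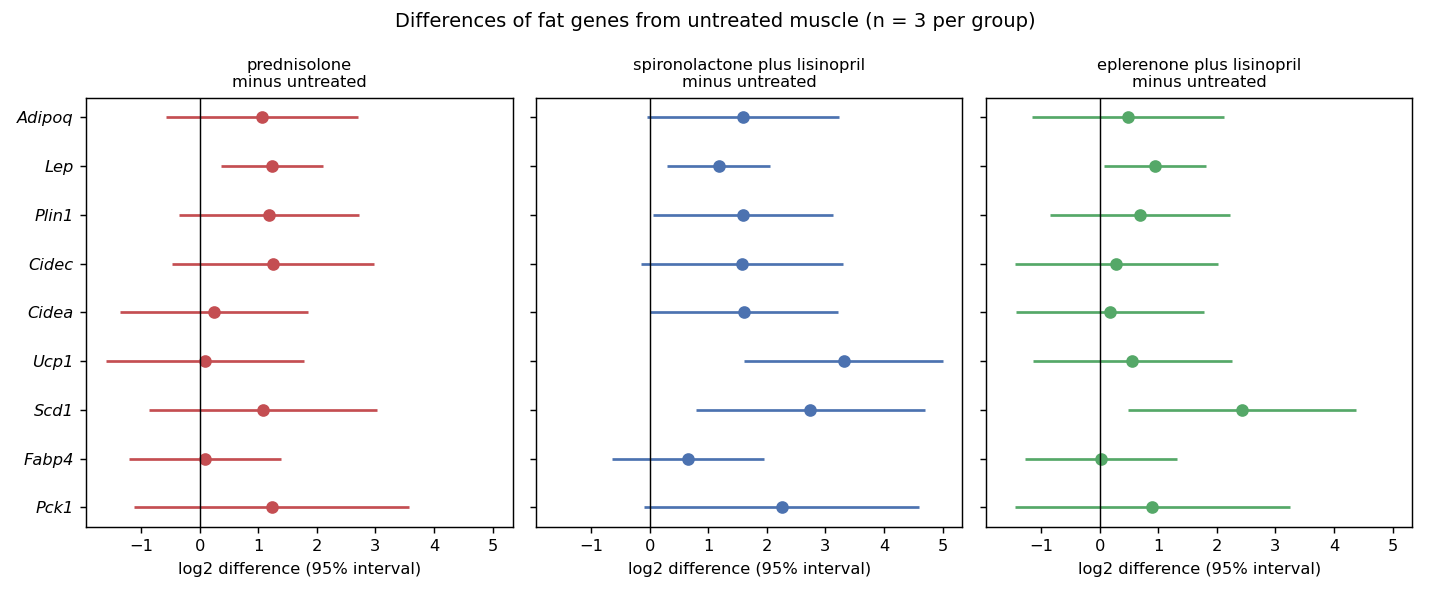
Log2 difference from untreated (horizontal axis) of the 9 genes (vertical axis) for prednisolone, spironolactone plus lisinopril and eplerenone plus lisinopril, with 95% intervals from limma and n = 3 per group. All points lie above 0, and the intervals that stay clear of 0 in all 3 panels are those of Lep.

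The spread between mice of one group was large for these genes. Their residual SDs lay between the 98.9th percentile (Lep) and the 99.96th percentile (Pck1) of all tested clusters, whose median residual SD was 0.16. Over the 12 arrays the log2 range was 2.05 for Lep and 5.88 for Ucp1, with the other genes in between. The mean deviation of the 9 genes from their 12-array means was 1.19, -0.94 and -0.31 in prednisolone arrays, 0.64, -0.37 and 2.70 in spironolactone plus lisinopril arrays and -0.56, -0.07 and 0.26 in eplerenone plus lisinopril arrays, against -0.64, -1.14 and -0.76 in untreated arrays. Array 3 of spironolactone plus lisinopril was the highest of the 12 for 9 of 9 genes, and array 1 of prednisolone the second highest for 7. Without array 3 of spironolactone plus lisinopril, the median difference from untreated was 0.80 with 8 of 9 genes higher in value. Without array 1 of prednisolone, the median difference of prednisolone from untreated was 0.30, with 7 of 9 genes higher and a range of -0.50 to 0.88.

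Levels of 8 genes were set against Adipoq over the 12 arrays. Cidec followed Adipoq most closely, with a Pearson r of 0.987 and a Spearman rho of 0.993 (adjusted permutation p = 8e-05 for each, over 8 relations). Plin1 had an r of 0.967 and rho of 0.867, and Pck1 an r of 0.943 and rho of 0.832, with adjusted permutation p-values of 8e-05 and 0.00228 for Plin1 and 0.000187 and 0.00333 for Pck1. Fabp4 (r = 0.908, rho = 0.804), Cidea (r = 0.863, rho = 0.636), Lep (r = 0.822, rho = 0.692) and Scd1 (r = 0.789, rho = 0.755) had adjusted permutation p-values under the threshold by both measures, the highest being 0.0348 for the rho of Cidea. Ucp1 had the lowest values, with r = 0.657 (adjusted permutation p = 0.0275) and rho = 0.413 (adjusted permutation p = 0.184). The unadjusted permutation p-values were 1e-05 for Cidec, the smallest that 100000 resamples can give, and 0.0275 for Ucp1.

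The relations changed to different degrees when the arrays highest in Adipoq were left out. Without array 3 of spironolactone plus lisinopril and array 1 of prednisolone, the arrays farthest from the median of Adipoq, r was 0.985 for Cidec, 0.888 for Plin1 and 0.807 for Pck1, and these 3 relations remained past the threshold by Pearson r. By Spearman rho 2 did, Cidec and Plin1 (adjusted permutation p = 0.0497), and Pck1 did not (0.0699). The relations of Scd1 (r = 0.692, adjusted permutation p = 0.0523), Fabp4 (0.624), Lep (0.570), Cidea (0.526) and Ucp1 (0.469) were no longer past the threshold by either measure. With each group's mean removed, r was 0.991 for Cidec, 0.957 for Fabp4, 0.956 for Plin1, 0.927 for Pck1, 0.904 for Scd1, 0.870 for Cidea, 0.836 for Lep and 0.636 for Ucp1. With 3 arrays a group, no r was computed within single groups, and the order of the arrays was compared in its place. Cidec had the order of Adipoq in 4 of 4 groups, Plin1, Scd1, Fabp4 and Pck1 in 3, Lep and Cidea in 2, and Ucp1 in 1.

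**Figure D3:**
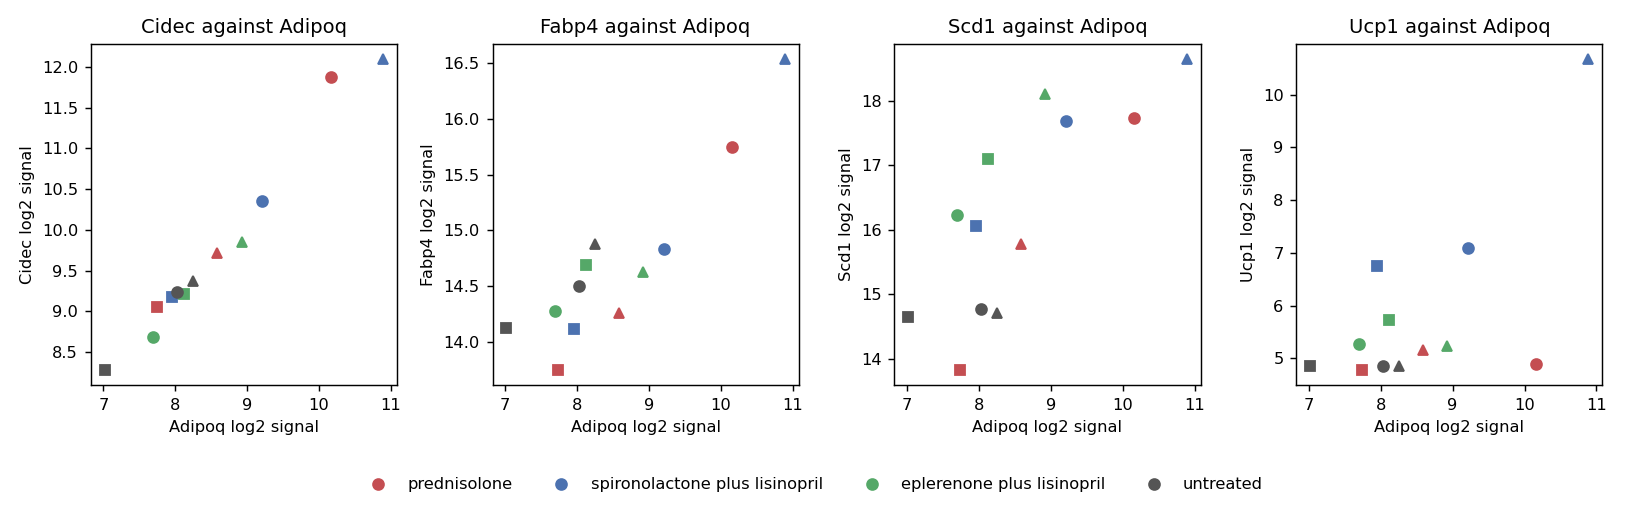
Log2 signals of Cidec, Fabp4, Scd1 and Ucp1 (vertical axes) against the log2 signal of Adipoq (horizontal axis) on the 12 arrays. Colours give the group and shapes the array number. Cidec lies on a single line (r = 0.987), the untreated arrays lie below the other groups in the Scd1 panel at like Adipoq except for array 2 of prednisolone, and in the Ucp1 panel array 1 of prednisolone has high Adipoq (10.16) and low Ucp1 (4.89).

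With the level of Adipoq as a covariate in the limma fit, the differences of most genes from untreated became smaller and some changed sign. Scd1 against untreated muscles was 1.91 ± 0.41 in eplerenone plus lisinopril (adjusted p = 0.149) and 1.03 ± 0.48 in spironolactone plus lisinopril muscles (adjusted p = 0.390). Ucp1 in spironolactone plus lisinopril against untreated muscles was 2.27 (adjusted p = 0.261). Fabp4 became lower in value in each treated group, by -0.72 for prednisolone (adjusted p = 0.081), -0.54 for spironolactone plus lisinopril and -0.34 for eplerenone plus lisinopril. Lep stayed higher in value, by 0.76 for prednisolone (adjusted p = 0.132), 0.48 for spironolactone plus lisinopril (adjusted p = 0.500) and 0.73 for eplerenone plus lisinopril (adjusted p = 0.278).

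The mineralocorticoid receptor antagonists were given at different doses, 100 mg/kg/day of spironolactone and 200 mg/kg/day of eplerenone, so their values stand side by side with no comparison of the compounds at matched dose. In the limma contrast of these groups, Ucp1 was 8.17 ± 2.17 in spironolactone plus lisinopril and 5.41 ± 0.28 in eplerenone plus lisinopril muscles (SD, n = 3 each), a difference of 2.76 ± 0.77 with an interval of 1.06 to 4.45 and no overlap (adjusted p = 0.998). Scd1 was 17.46 ± 1.31 in spironolactone plus lisinopril and 17.14 ± 0.93 in eplerenone plus lisinopril muscles, a difference of 0.31 ± 0.88 with an interval of -1.63 to 2.26. No member and no cluster at all (0 of 30412) passed the adjusted threshold by limma, with 4.49% of all clusters at an unadjusted p under 0.05. Of the 9 genes, only Ucp1 was higher at that level, where 1.86% of all clusters were. The groups did not overlap, with spironolactone plus lisinopril higher, for 2 of 9 genes (Ucp1 and Cidea, against 4.04% of all clusters). For Cidea this was nearly a tie. Its lowest spironolactone plus lisinopril value was 6.981 and its highest eplerenone plus lisinopril value 6.974. Without array 3 of spironolactone plus lisinopril the median difference of the 9 genes between these groups was 0.02 with 5 of 9 higher in value, against 1.11 with 9 of 9 higher when all arrays were used.

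Against prednisolone, spironolactone plus lisinopril muscles had Ucp1 higher by 3.22 ± 0.77 with an interval of 1.53 to 4.92 and no overlap (adjusted p = 0.077). The adjusted p was 0.00208 without array 3 of spironolactone plus lisinopril, where the difference was 1.97 ± 0.17, 0.0487 when dim clusters were left out and 0.0452 with array weights. It missed the threshold in the other alternatives, with an adjusted p of up to 0.239, reached without array 2 of prednisolone. The fit without array 3 of spironolactone plus lisinopril leaves arrays 1 and 2, and its SE does not measure the spread of the full group. Scd1 differed by 1.67 in the same comparison (adjusted p = 0.382), and no member passed by limma, where 0.822% of all clusters did. At an unadjusted p under 0.05, 1 of 9 genes (Ucp1) was higher, against 7.45% of all clusters. Of the 9 genes, 1 (Ucp1) had groups without overlap there, against 10.2% of all clusters higher without overlap. Eplerenone plus lisinopril against prednisolone gave Scd1 higher by 1.36 (adjusted p = 0.600) and Ucp1 higher by 0.47 (adjusted p = 0.871). Ucp1 was again the 1 gene without overlap (9.96% of all clusters were higher without overlap), and the other 7 genes were lower in value. The lowest eplerenone plus lisinopril value of Ucp1 was 5.22 and the highest prednisolone value 5.16, both below the arrays' medians. No member passed in that comparison, where 0.608% of clusters did, and 0 had an unadjusted p under 0.05, where 5.85% of all clusters were higher at that level.

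Other genes of the same processes were taken from lists of pathway and cell type genes. Among 13 adipogenic transcription factors measured, 1 rose and 2 fell under prednisolone against untreated: Mlxipl, a carbohydrate-responsive lipogenic factor, by 0.57 ± 0.09 (adjusted p = 0.008), Cebpd by -3.10 ± 0.41 (adjusted p = 0.004) and Cebpb by -0.76, C/EBP factors that act early in adipocyte differentiation. Cebpd was also lower in value under spironolactone plus lisinopril (-2.34, adjusted p = 0.080) and eplerenone plus lisinopril (-1.47, adjusted p = 0.224) than in untreated muscles. Of 15 measured lipid droplet and lipolysis genes, 3 rose and 1 fell under prednisolone: Plin5 (0.69), Plin3 (0.62) and Fitm2 (0.85) rose, and Hilpda, a lipase inhibitor, fell by 0.60 on the log2 scale. Plin5 coats droplets of oxidative tissues such as muscle, and Fitm2 partitions triglyceride into droplets. Of 16 lipogenesis and triglyceride synthesis genes, Acss2 (0.78), Lpin1 (0.74) and Gpam (0.52) rose and Elovl5 fell by 0.71 on the log2 scale under prednisolone. Acss2, the cytosolic acetyl-CoA synthetase, differed by 0.73 under spironolactone plus lisinopril (adjusted p = 0.076) and by 0.63 under eplerenone plus lisinopril (adjusted p = 0.134).

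Under prednisolone 20 of 179 measured list genes passed against untreated by limma, where 6.39% of all clusters did. Cebpd, Mlxipl, Plin3, Plin5, Hilpda, Acss2, Dio2, Cdh5 and Fcgr1 passed with each array left out in turn, and the others missed the threshold without at least 1 array, with Elovl5 reaching an adjusted p of 0.165. Against untreated, no list gene passed under either antagonist plus lisinopril. At an unadjusted p under 0.05 there were 34 list genes for spironolactone plus lisinopril (19.0% of those measured, beside 16.2% of all clusters) and 26 for eplerenone plus lisinopril (14.5%, beside 13.4% of all clusters). Against prednisolone, 4 genes of these lists passed under each combination, all lower. Plin3 differed by -0.80 and -0.63, Plin5 by -0.63 and -0.77, Lpin1 by -0.85 and -1.25 and Lcn2 by -3.06 and -3.10 for spironolactone plus lisinopril and eplerenone plus lisinopril (limma, adjusted p between 0.00479 and 0.0273). These comparisons share the prednisolone arrays, and Lpin1 for eplerenone plus lisinopril was the 1 call of the 8 that held with each array left out in turn. The medians of the lipogenesis list were 0.63 for prednisolone, 0.76 for spironolactone plus lisinopril and 0.37 for eplerenone plus lisinopril against untreated, beside medians near 0 over all clusters. In the brown and beige fat list of 17 measured genes, Cpt1b, the muscle carnitine palmitoyltransferase, rose by 0.97 and Dio2, the thyroid hormone-activating deiodinase, fell by 0.74 on the log2 scale under prednisolone. The list medians were 0.10, -0.03 and -0.01 for prednisolone, spironolactone plus lisinopril and eplerenone plus lisinopril. Under spironolactone plus lisinopril the smallest p-values of that list belonged to Ucp3, the muscle uncoupling protein (-1.45, adjusted p = 0.166), and Dio2 (-0.34, adjusted p = 0.195). None of the 17 genes passed against untreated in that group by limma, where 0.0822% of all clusters did.

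No gene of the 12 adipokines and receptors passed against untreated. The smallest p-values under prednisolone belonged to Lcn2, lipocalin 2 (1.78, adjusted p = 0.054), and Apln, apelin (-0.69, adjusted p = 0.056). Of 9 fatty acid uptake and binding genes, Vldlr rose by 0.77 under prednisolone. No gene of the 6 gluconeogenesis and glyceroneogenesis genes passed, the smallest p under prednisolone being that of Pcx, pyruvate carboxylase (1.32, adjusted p = 0.311).

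The 15 other measured adipocyte markers had median differences of 0.83 for prednisolone, 0.95 for spironolactone plus lisinopril and 0.27 for eplerenone plus lisinopril against untreated, and none passed the threshold. Dgat2, which makes triglyceride, differed by 2.30 (adjusted p = 0.202) and Trarg1, a regulator of glucose transporter traffic in adipocytes, by 2.01 (adjusted p = 0.214) under spironolactone plus lisinopril. The mean log2 level of these markers ranged over 8.73 to 10.42 in prednisolone, 8.57 to 10.80 in spironolactone plus lisinopril and 8.52 to 9.21 in eplerenone plus lisinopril arrays, against 8.11 to 8.74 in untreated arrays. The highest values were again in array 3 of spironolactone plus lisinopril and array 1 of prednisolone. The part of fat content in the differences of the 9 genes was not tested. Adipoq is itself among the 9 genes, so the fit with it as a covariate cannot measure that part.

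**Figure D4:**
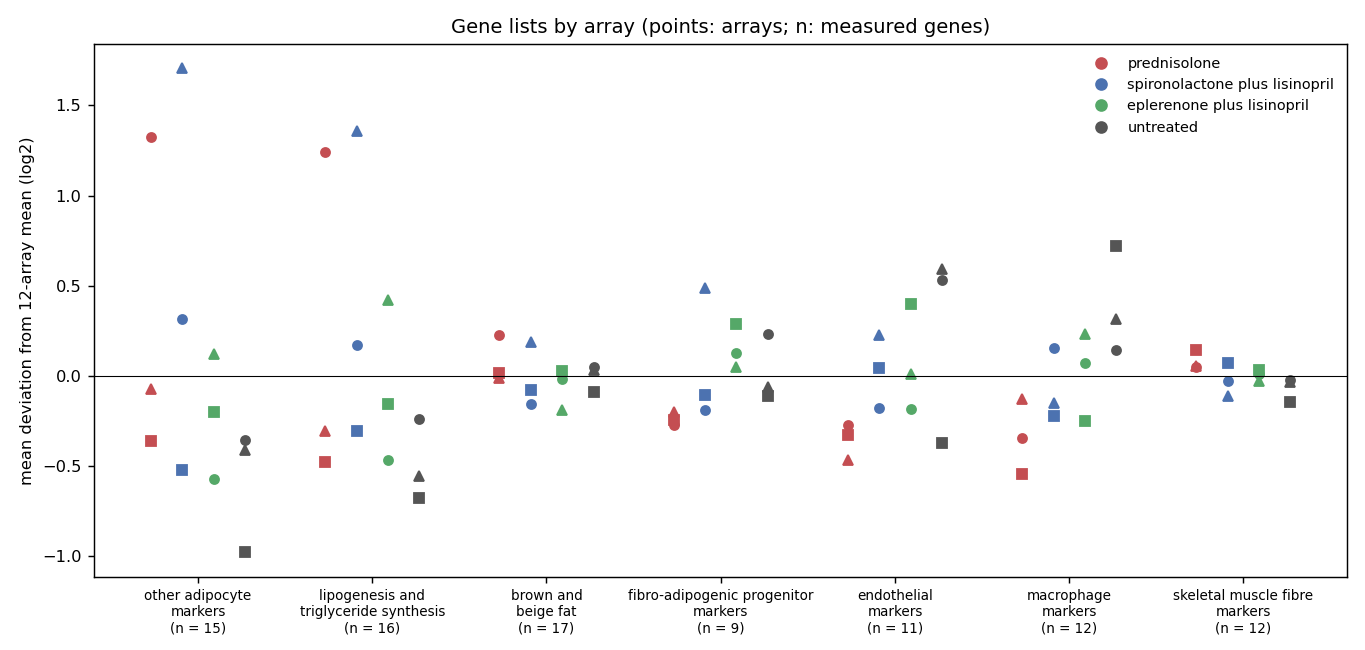
Mean deviation from the 12-array mean (vertical axis, log2) of 7 gene lists (horizontal axis, with the number of measured genes) on each array, coloured by group, with circles, squares and triangles for arrays 1, 2 and 3. Array 3 of spironolactone plus lisinopril stands highest for other adipocyte markers (1.71) and lipogenesis (1.36), followed by array 1 of prednisolone (1.33 and 1.24), while the muscle fibre markers, 3 of which sit at the top of the scale, lie within 0.14 of 0.

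Markers of other cell types in the muscle were set beside the fat genes. Fibro-adipogenic progenitor markers (9 measured) had mean levels of 10.80 to 10.87 in prednisolone, 10.88 to 11.56 in spironolactone plus lisinopril and 11.12 to 11.36 in eplerenone plus lisinopril arrays, against 10.96 to 11.30 in untreated arrays, and none passed against untreated. Endothelial markers (11 measured) had mean levels of 9.28 to 9.47 in prednisolone, 9.57 to 9.97 in spironolactone plus lisinopril and 9.56 to 10.15 in eplerenone plus lisinopril arrays, against 9.37 to 10.34 in untreated arrays. Cdh5 fell by 1.48 and Esam by 0.91 on the log2 scale under prednisolone, both junction proteins of endothelium. Macrophage markers (12 measured) lay at 12.28 to 12.69 in prednisolone, 12.59 to 12.97 in spironolactone plus lisinopril and 12.57 to 13.05 in eplerenone plus lisinopril arrays, against 12.96 to 13.54 in untreated arrays. Fcgr1 (-2.23), C1qb (-0.94) and Mrc1 (-1.22) fell under prednisolone. Endothelial cells and macrophages can express Fabp4, and their part in its values was not tested.

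Skeletal muscle fibre markers (12 measured) lay at 19.03 to 19.13 in prednisolone, 18.87 to 19.05 in spironolactone plus lisinopril and 18.95 to 19.01 in eplerenone plus lisinopril arrays, against 18.84 to 18.96 in untreated arrays, and none passed. Of these markers 3 (Acta1, Myh4 and Atp2a1) had the highest value of the array on 10 or 11 of the 12 arrays, so that they could hardly vary, and the narrow ranges are partly set by that limit. No slow fibre, tendon, erythroid, skin or liver marker passed against untreated, and of 5 Schwann cell markers Pmp22 fell by 0.58 on the log2 scale under prednisolone. The mean levels of the liver markers (4.73 to 4.92) and skin markers (5.04 to 5.33) stayed below the arrays' medians on every array.

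The 10 single-symbol clusters most like the 9 genes over the 12 arrays, by Pearson r to their mean deviation, were Agpat2 (0.985), Ces1d (0.973), Trarg1 (0.972), Gys2 (0.970), Echdc1 (0.969), Ces1f (0.969), Prkar2b (0.969), Slc36a2 (0.968), Mrap (0.967) and Dgat2 (0.967). Agpat2 makes phosphatidic acid on the route to triglyceride, Mrap is an accessory protein of melanocortin receptors and Gys2 is the glycogen synthase known from liver and fat. In all, 65 clusters outside the 9 genes had an r above 0.9, over arrays of which array 3 of spironolactone plus lisinopril and array 1 of prednisolone lay farthest from the rest. Without those arrays the r of the 10 named clusters lay between 0.840 (Ces1f) and 0.938 (Agpat2). Agpat2 differed from untreated by 0.80, 1.47 and 0.42 under prednisolone, spironolactone plus lisinopril and eplerenone plus lisinopril (limma, adjusted p = 0.480, 0.261 and 0.784).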

How the data were processed

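Total RNA of quadriceps from 12 mice was measured on Affymetrix arrays, 1 array per mouse and 3 per group. The deposited values are log2 signals per transcript cluster for which the submitters' processing notes name RMA, the Affymetrix Expression Console and the Transcriptome Analysis Console. No version of these tools and no genome build is named there. The deposited log2 values reach 19.93, above the 16 of a 16-bit scanner, so they were rescaled at a step the sources do not state. No counts or depth exist, and the number of arrays limits the precision.

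Of 65587 clusters, the 30412 with exactly 1 symbol were tested with limma 3.58.1 in R 4.3.3 (4 group means, moderated over 8 residual and 2.94 prior degrees of freedom), Benjamini-Hochberg over all of them, threshold 0.05, two-sided. P-values measure the spread between mice. An exact permutation of 3 against 3 arrays cannot go below 0.1 and was not used. Correlations used two-sided permutation tests with 100000 resamples. The limma step was tested on simulated data. Of 195 genes in 18 lists, 179 were measured. Named list genes were those past the threshold (at most 4 per list and comparison with the smallest p) or otherwise at most 2; likeness was ranked without predicted genes. The members and lists were chosen with earlier results of these data known. The alternatives changed normalization, filter, moderation, weights, block, covariate, samples in the fit and single arrays left out.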

Additional observations from a re-analysis of the deposited data

How the results depend on the processing

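No member passed limma's adjusted threshold against untreated under any alternative except Ucp1. Leaving out single arrays gave 0 to 1 members past the threshold for spironolactone plus lisinopril against untreated, 0 to 1 against prednisolone and 0 to 1 in the F-test. The 1 was Ucp1 in each case, without array 3 of spironolactone plus lisinopril. For spironolactone plus lisinopril against prednisolone, 1 member (Ucp1, 3.22 and 2.73) also passed when dim clusters were left out and with array weights. List genes past the threshold under prednisolone numbered 33 with dim clusters left out, 11 with only the 2 groups in the fit and 9 to 25 without single arrays (12 without prednisolone array 1, 9 without prednisolone array 2). Calls over all clusters moved with them, from 1942 with all arrays to 2631 with dim clusters left out, 656 without prednisolone array 1 and 456 without prednisolone array 2. The setting without dim clusters tested only clusters with a mean above the median of the tested means (5.76). Its counts are therefore out of fewer clusters and are not on the same base as the others. Of the 20, 9 passed with every array left out and 17 with the replicate block. Under spironolactone plus lisinopril they numbered 1 with dim clusters left out, 1 with array weights and 0 to 5 without single arrays (5 without untreated array 1, 1 without its own array 3). Under eplerenone plus lisinopril they numbered 0 to 4, with 4 without untreated array 1. Without that array the calls over all clusters were 534 for spironolactone plus lisinopril and 432 for eplerenone plus lisinopril, against 25 and 9 with all arrays. Relations with Adipoq past the threshold by Pearson r numbered 3 without the 2 farthest arrays and 7 to 8 without single arrays. By Spearman rho they numbered 7 with all arrays, 2 without the 2 farthest and 5 to 7 without single arrays. With the replicate block they numbered 8, with a rho of 0.629 for Ucp1 (adjusted permutation p = 0.032). The r of Ucp1 ran between 0.17 and 0.85 without single arrays.

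With Adipoq as a covariate the sign turned for prednisolone minus untreated in Cidea (-0.66), Ucp1 (-0.61), Scd1 (-0.075), Fabp4 (-0.72) and Pck1 (-0.19). It turned for spironolactone plus lisinopril minus untreated in Cidec (-0.089) and Fabp4 (-0.54), for eplerenone plus lisinopril minus untreated in Cidec (-0.22), Cidea (-0.24) and Fabp4 (-0.34), and for spironolactone plus lisinopril minus eplerenone plus lisinopril in Scd1 (-0.88). Array weights turned Fabp4 under prednisolone (-0.017) and Scd1 between the antagonist groups (-0.0070). Without single arrays, prednisolone minus untreated ran between -0.36 and 0.63 for Cidea, -0.016 and 0.17 for Ucp1 and -0.50 and 0.50 for Fabp4. Spironolactone plus lisinopril minus untreated ran between -0.025 and 1.18 for Fabp4. Eplerenone plus lisinopril minus untreated ran between -0.053 and 0.57 for Cidec and -0.16 and 0.22 for Fabp4, and Scd1 between the antagonist groups between -0.27 and 1.02. The cause of these changes was not tested.

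Arrays with the same replicate number showed little likeness: over 18 such pairs the correlation of deviations ran between -0.24 and 0.16. Whether arrays with the same number shared a batch was not tested. With the replicate block the adjusted p was 0.127 for Lep under prednisolone, 0.127 for Ucp1 and 0.182 for Scd1 under spironolactone plus lisinopril, and 0.108 for Ucp1 against prednisolone. The block gave 1452, 1 and 2 clusters past the threshold against untreated for prednisolone, spironolactone plus lisinopril and eplerenone plus lisinopril, against 1942, 25 and 9 without it.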
